A study of Mus musculus with 12 samples.

Results

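The genes described here are 9 negative regulators of interferon signalling: Socs1, Socs2, Socs3, Cish, Usp18, Ptpn1, Ptpn2, Ptpn6 and Pias1. They were chosen by name as known inhibitors of the pathway, and make up 9 of the 55216 genes in the count table. All 9 passed the filter on low counts that left 13177 genes to test. Their RNA was measured by poly(A) RNA-seq in 12 libraries of Myc-CaP cells, a prostate cancer line of FVB/NJ mouse origin, after 48 h in culture, with 2 libraries in each of 6 groups. Ctrl cells received no agent, IFN200 and IFN2000 cells received 200 or 2000 pg of IFNγ (the labels give no volume), Oxali cells received 2 μM oxaliplatin, a platinum compound that crosslinks DNA, and Combo200 and Combo2000 cells received the same Oxali dose together with 200 or 2000 pg of IFNγ. The design asks how a DNA-damaging drug and IFNγ act on gene expression alone and together. Groups were taken from the sample titles, which are also the column names of the table. In 6 of the 12 libraries, those of the single treatments, another label naming the agent disagrees with the title, so every single-treatment direction below rests on the titles. Ifngr2, an IFNγ receptor gene, measured 4.88 and 4.44 CPM (the usual depth-scaled count, taken here on TMM-scaled library sizes) in the libraries titled Oxali and 4.44 to 5.56 CPM in the 4 combination libraries, whose labels do not conflict, against 0.751 to 1.34 CPM in those titled Ctrl, IFN200 and IFN2000. Against Ctrl, 15 of the 13177 genes were called (an adjusted p under 0.05 in the edgeR quasi-likelihood test) in the libraries titled IFN200, which the other label gives as Oxali, and 8911 in those titled Oxali. All libraries come from 1 cell line, and nothing states that the libraries of a group came from separate cultures, so p-values measure only the spread between these libraries.

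IFNγ binds a receptor whose JAK kinases phosphorylate STAT proteins, which then dimerize, enter the nucleus and bind the gamma-activated site, or GAS, of target genes, whereas type I interferons act mainly through a complex of STATs with IRF9 that binds the interferon-stimulated response element, or ISRE. The response is limited at several steps. SOCS proteins and CIS are made in response to cytokine and act at the receptor and its kinases, the phosphatases encoded by Ptpn1, Ptpn2 and Ptpn6 remove phosphate from JAKs or STATs, PIAS1 acts on STATs in the nucleus, and USP18 blocks the type I receptor and removes the ubiquitin-like protein ISG15 from its targets. Several of these inhibitors are themselves interferon targets and so form a feedback loop.

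The sequences around the start sites of 3 SOCS family genes are shown because, of the members searched, only their 300-base windows held 1 of the motifs. Windows ran from 250 bases before to 50 bases after the RefSeq start site (build GRCm38.p6). Those of 6 of the 9 genes were searched (Socs1, Socs3, Cish, Ptpn1, Ptpn6 and Pias1). Capitals mark the motifs TTCNNNGAA, the letters of a GAS, and GAAANNGAAA, the core letters of an ISRE, each searched on both strands.
Socs1: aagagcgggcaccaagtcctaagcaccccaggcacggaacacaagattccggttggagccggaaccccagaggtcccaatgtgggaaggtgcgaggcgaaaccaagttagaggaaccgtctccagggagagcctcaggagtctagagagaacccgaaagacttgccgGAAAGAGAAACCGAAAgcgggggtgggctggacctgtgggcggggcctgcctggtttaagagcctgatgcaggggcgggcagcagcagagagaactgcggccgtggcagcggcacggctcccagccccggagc
Socs3: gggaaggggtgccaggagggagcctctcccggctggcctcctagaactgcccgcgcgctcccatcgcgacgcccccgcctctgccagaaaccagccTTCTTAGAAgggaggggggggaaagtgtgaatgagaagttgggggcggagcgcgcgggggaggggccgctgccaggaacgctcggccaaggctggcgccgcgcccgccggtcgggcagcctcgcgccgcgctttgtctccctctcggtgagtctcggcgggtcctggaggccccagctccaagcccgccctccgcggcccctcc
Cish: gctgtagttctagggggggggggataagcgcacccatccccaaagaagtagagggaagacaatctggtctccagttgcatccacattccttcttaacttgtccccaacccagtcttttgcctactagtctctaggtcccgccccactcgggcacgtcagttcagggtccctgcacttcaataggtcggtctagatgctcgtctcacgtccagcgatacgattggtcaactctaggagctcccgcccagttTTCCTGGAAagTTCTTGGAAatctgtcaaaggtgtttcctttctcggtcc
The Socs1 window (chr16:10785487-10785786, minus strand) held 2 ISRE cores that overlap each other, starting at positions -83 and -77 from the start site. The Socs3 window (chr11:117969317-117969616, minus strand) held 1 GAS at -154. The Cish window (chr9:107296409-107296708, plus strand) held 2 GAS motifs, whose first bases are at 1 and 12 counted from the start site. Windows of Ptpn1, Ptpn6 and Pias1 held neither motif. Among all 32851 windows of this length, 8.3% held the GAS letters and 3.44% the ISRE core, so a match is a description of these letters only.

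Each library held 18749975 to 25931516 counts, and 3 counts, taken as the detection floor, correspond to 0.111 to 0.167 CPM. The floor covers counting error only. Of the prostate luminal markers, Krt8 had 353 to 628 counts, whereas Epcam was at 0 in all 12 libraries, Krt18 did not exceed 5 counts and Cdh1 did not exceed 6. IFN2000 replicate 2 stood apart in 8 T cell markers, with 172 counts in sum against 3 to 43 in the other 11 libraries, including 64 counts of Ptprc and 33 of Cd4, and with Cd8a at 0. IFN200 replicate 1 held 163 counts of 5 heart muscle markers, 63 of them Actc1, against 15 to 26 in the other 5 libraries without Oxali. Fold changes and sums of the 9 regulators below that rest on either library are, for the most part, also given without it. The 6 libraries with Oxali had a summed T cell marker level of 1.24 to 1.85 CPM against 0.133 to 0.564 CPM in the other 5 libraries without Oxali, a myeloid level (5 markers) of 1.53 to 2.18 against 0.530 to 1.27 CPM, and 69 to 129 counts of the heart muscle list. In these 6 libraries Lck gave 24 to 40 of the 26 to 43 T cell marker counts, and no other T cell marker exceeded 3 counts. Tnnt2 gave 68 to 125 of the 69 to 129 heart muscle counts. Of the T cell, myeloid and heart muscle lists, Lck, Csf1r and Tnnt2 were called higher in Oxali than in Ctrl. Cd8a, Itgam and Adgre1 were at 0 in all 12 libraries, and B cell markers (3 genes) did not exceed 1 count. The part of these genes in the Oxali results was not tested, and in bulk RNA a changed number of cells of 1 kind and a changed amount of RNA per cell cannot be told apart.

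Socs1, which encodes a protein that binds JAK kinases and blocks their activity, rose with IFNγ at 2000 pg, with Oxali and most with both. The Ctrl libraries measured 1.17 and 1.27 CPM, those of IFN200 0.564 and 0.972, those of IFN2000 2.61 and 3.30, those of Oxali 2.35 and 2.48, those of Combo200 4.45 and 3.90 and those of Combo2000 11.6 and 12.03 CPM. Both Combo2000 libraries lay above all 10 others, and every treated group except IFN200 lay above both Ctrl libraries. Against Ctrl, Socs1 was 2.41-fold higher in IFN2000 (log2 difference 1.27 ± 0.23 SE, adjusted p = 0.000906, edgeR quasi-likelihood test with Benjamini-Hochberg adjustment over all genes, as for every adjusted p below). It was 1.98-fold higher in Oxali (0.98 ± 0.24, adjusted p = 0.00142), 3.40-fold higher in Combo200 (1.77 ± 0.21, adjusted p = 3.82e-07) and 9.62-fold higher in Combo2000 (3.27 ± 0.17, adjusted p = 2.28e-12). These 4 comparisons share the Ctrl libraries. The 4 calls held in all 22 alternative settings, with IFN2000 replicate 2 left out included (log2 difference 1.44, adjusted p = 0.00121). In IFN200 both libraries lay below both Ctrl libraries in CPM, on 13 and 22 counts against 21 and 25, and the log2 difference of -0.67 did not pass (adjusted p = 0.814, 95% interval -1.31 to -0.02 before adjustment), and was -0.33 without IFN200 replicate 1, also not called. Both libraries of IFN2000 lay above both of IFN200, a log2 difference of 1.94 ± 0.24 (adjusted p = 2.35e-05), which was 1.61 without IFN200 replicate 1 (adjusted p = 0.00192). Socs1 (ENSMUSG00000038037) lies on chr16:10782240-10785536, minus strand, in the annotation used here (GRCm38, as for all gene coordinates below).

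Usp18, the ISG15-specific protease and inhibitor of the type I interferon receptor, had the largest change of the 9 genes against Ctrl in every treated group with Oxali. Ctrl libraries held 3 and 7 counts (0.167 and 0.355 CPM), the first of them at the floor, IFN200 held 0.651 and 0.530 CPM, and IFN2000 held 0.857 and 0.580 CPM. Oxali libraries held 2.86 and 2.96 CPM, Combo200 4.80 and 5.33 CPM, and Combo2000 7.41 and 7.54 CPM. All 6 libraries with Oxali lay above all 6 without it, and the 3 Oxali groups did not overlap each other. The log2 difference from Ctrl was 3.43 ± 0.32 in Oxali (adjusted p = 1.2e-08), 4.23 ± 0.28 in Combo200 (adjusted p = 6.41e-11) and 4.79 ± 0.26 in Combo2000 (adjusted p = 2.61e-12). The size of these differences depended on which Ctrl library was kept: leaving out Ctrl replicate 1 gave 3.01 for Oxali and leaving out Ctrl replicate 2 gave 4.08, with 3.81 and 4.88 for Combo200 and 4.37 and 5.44 for Combo2000, each still called. With IFNγ alone the difference was 1.42 ± 0.44 at 2000 pg (adjusted p = 0.0302), and this call was lost without IFN2000 replicate 2 (1.12, adjusted p = 0.282), without Ctrl replicate 1 (1.02, adjusted p = 0.271) and by DESeq2 (adjusted p = 0.0599). At 200 pg it was 1.14 ± 0.46, not called (adjusted p = 0.762, 95% interval 0.18 to 2.10), and 0.98 ± 0.54 without IFN200 replicate 1, also not called. Usp18 (ENSMUSG00000030107, chr6:121245906-121270917, plus strand) shares 124 bases of exon with Gm44148 on the opposite strand, and whether the counting used strand is not given in the sources used here.

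**Figure D1:**
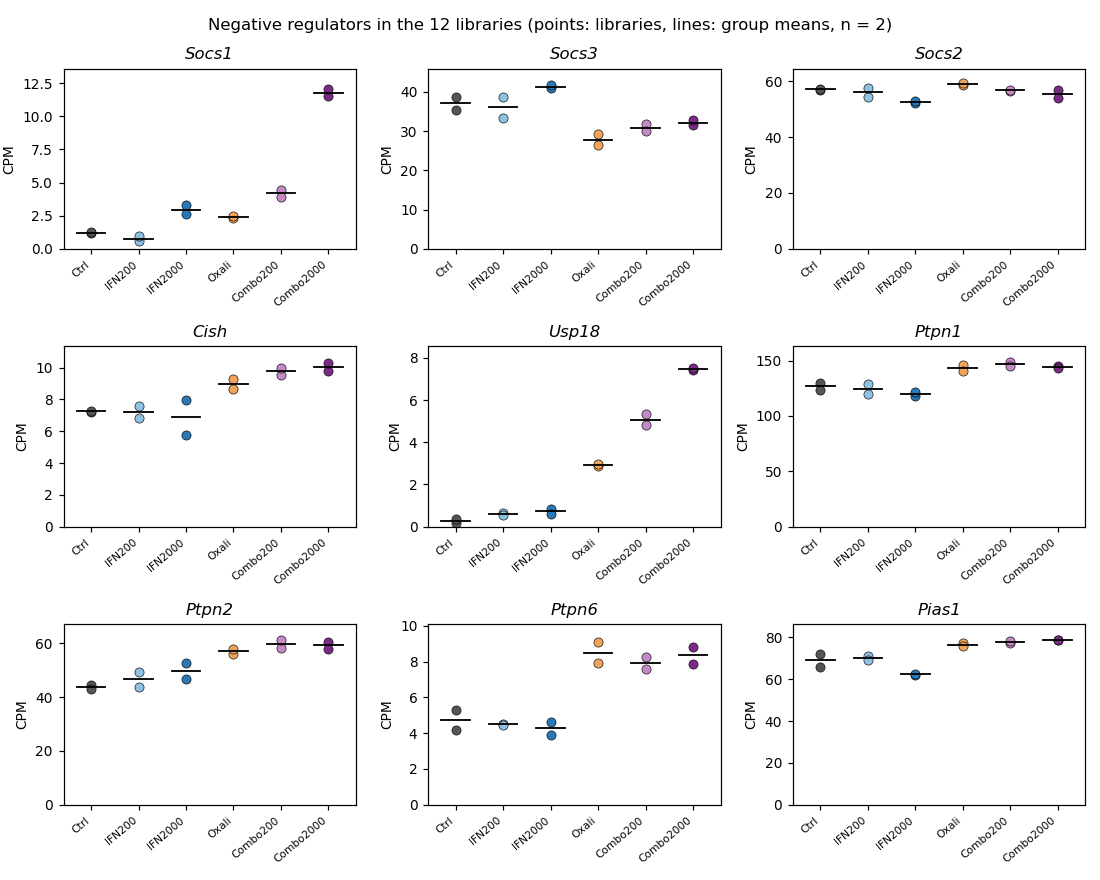
Level of each regulator in CPM (vertical axis, linear from 0) in the 12 libraries by group (horizontal axis), with points for libraries and lines for group means. Both Combo2000 libraries of Socs1, at 11.6 and 12.03 CPM, lie above all others, whereas Socs2 stays between 52.1 and 59.5 CPM.

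Across all 9 regulators, 4 were called against Ctrl in IFN2000 (3 higher, 1 lower), where 16.9% of all genes were called in either direction. In Oxali 8 were called (7 higher, 1 lower), where 67.6% of all genes were called, so most genes moved and a count of 8 of 9 is to be read against that background. Combo200 also had 8 called (7 higher, 1 lower), beside 68.7% of all genes, and Combo2000 had 8 (7 higher, 1 lower), beside 69.2%. In IFN200 none was called by edgeR or by DESeq2, with 0.114% of all genes called, and 2 of the 9, Socs1 and Usp18, had an unadjusted p under 0.05. The median log2 difference of the 9 genes was -0.07 in IFN2000 (0.00 over all genes tested), 0.31 in Oxali (0.02 over all), 0.43 in Combo200 and 0.44 in Combo2000 (0.02 over all in both). DESeq2 called 1 gene in IFN2000, 7 in Oxali and 8 with both agents at either dose. In IFN2000 the count fell to 1, Socs1, with replicate 2 of that group left out, was also 1 without Ctrl replicate 1, and was 2 without any 1 of the 6 libraries with Oxali.

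**Figure D2:**
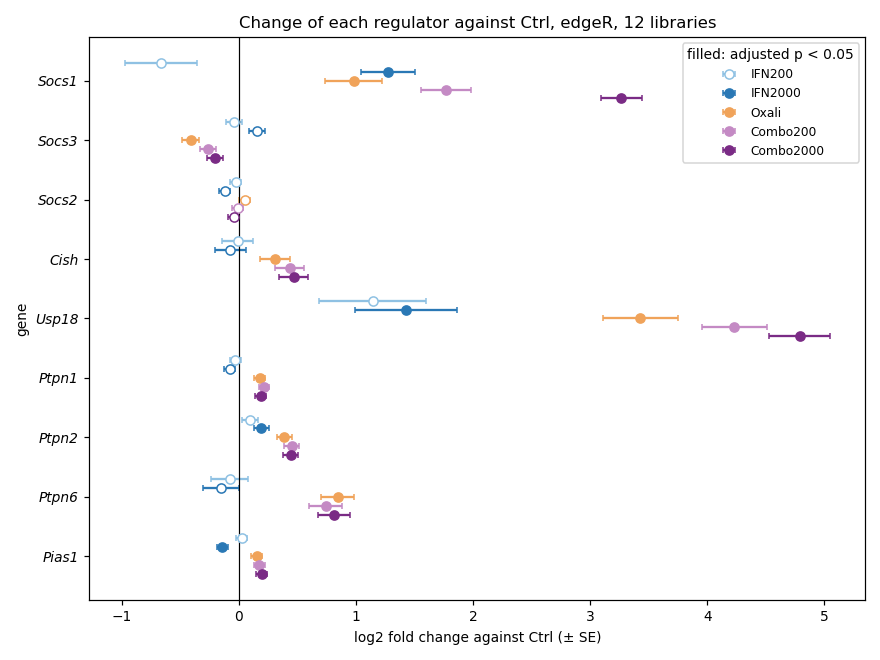
Log2 fold change of each regulator against Ctrl (horizontal axis, bars are SE) for the 5 treated groups, with filled points where the adjusted p is under 0.05. Usp18 and Socs1 have the largest changes, 4.79 and 3.27 in Combo2000, Socs3 lies below 0 in the 3 groups with Oxali, and Socs2 is never filled.

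Socs3, whose product inhibits receptors of the IL-6 family, was lower in all 3 groups with Oxali. The Ctrl libraries measured 35.5 and 38.6 CPM, those of IFN200 33.4 and 38.7, those of IFN2000 40.9 and 41.8, those of Oxali 29.3 and 26.3, those of Combo200 31.8 and 30.0 and those of Combo2000 31.5 and 32.9 CPM. All 6 libraries with Oxali lay below all 6 without it. The log2 difference from Ctrl was -0.41 ± 0.07 in Oxali (adjusted p = 6.09e-05), a call kept in all 22 settings. It was -0.26 ± 0.07 in Combo200 (adjusted p = 0.00286) and -0.21 ± 0.07 in Combo2000 (adjusted p = 0.0145). Without Ctrl replicate 2 these became -0.21 (adjusted p = 0.0590) and -0.14 (adjusted p = 0.178), and without Combo2000 replicate 2 the latter was -0.18 (adjusted p = 0.0963). With 2000 pg of IFNγ alone Socs3 was 0.16 ± 0.07 above Ctrl on the log2 scale, not called (adjusted p = 0.136, 95% interval 0.01 to 0.30), and 0.18 above it without IFN2000 replicate 2 (adjusted p = 0.237). Socs3 (ENSMUSG00000053113) lies on chr11:117966079-117970047, minus strand.

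Cish encodes CIS, a SOCS family protein best known from receptors that signal through STAT5. The Ctrl libraries measured 7.23 and 7.25 CPM, those of IFN200 7.55 and 6.80, those of IFN2000 7.97 and 5.76, those of Oxali 9.31 and 8.64, those of Combo200 9.55 and 9.97 and those of Combo2000 9.78 and 10.3 CPM. Every library with Oxali was above every library without it. The log2 difference from Ctrl was 0.31 ± 0.13 in Oxali (adjusted p = 0.0411), 0.43 ± 0.12 in Combo200 (adjusted p = 0.00463) and 0.47 ± 0.12 in Combo2000 (adjusted p = 0.00241). Both combination calls held in all 22 settings, whereas the Oxali call was lost in 11, by DESeq2 and when any of 7 libraries was left out (both Ctrl, both Oxali and both Combo200 libraries and Combo2000 replicate 2, adjusted p 0.0513 to 0.181). The higher of the IFN2000 values belongs to the library with T cell transcripts: without it the difference from Ctrl was -0.33 (adjusted p = 0.215) and with it -0.07 (adjusted p = 0.769), called in neither. Cish (ENSMUSG00000032578, chr9:107296026-107302784, plus strand) shares 261 and 479 bases of exon with Gm17040 and Gm17041 on the opposite strand.

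Socs2, best known as an inhibitor of growth hormone signalling, was not called in any of the 13 comparisons. Its lowest value was 52.1 CPM, in IFN2000, and its highest 59.5 CPM, in Oxali. The log2 difference from Ctrl was 0.05 in Oxali (95% interval -0.05 to 0.15), -0.01 in Combo200 (-0.11 to 0.09) and -0.04 in Combo2000 (-0.14 to 0.05). The IFN2000 libraries lay below both Ctrl libraries by -0.12 ± 0.05 (adjusted p = 0.0850), or -0.10 without IFN2000 replicate 2 (adjusted p = 0.344). Socs2 (ENSMUSG00000020027) lies on chr10:95385362-95417180, minus strand.

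Of the tyrosine phosphatases, Ptpn6, which encodes SHP-1, a phosphatase best known from blood cells, had the largest change. The Ctrl libraries measured 4.17 and 5.27 CPM, those of IFN200 4.51 and 4.46, those of IFN2000 3.90 and 4.64, those of Oxali 9.07 and 7.92, those of Combo200 7.59 and 8.23 and those of Combo2000 7.85 and 8.84 CPM. The 6 libraries with Oxali lay above the 6 without, and the 3 Oxali groups overlapped each other. Ptpn6 was 1.79-fold higher in Oxali than in Ctrl (log2 difference 0.84 ± 0.14, adjusted p = 2.23e-05), 1.67-fold higher in Combo200 (0.74 ± 0.14, adjusted p = 8.56e-05) and 1.75-fold higher in Combo2000 (0.81 ± 0.14, adjusted p = 2.64e-05), with no call lost in the 22 settings. With IFNγ alone the differences were -0.08 at 200 pg (95% interval -0.40 to 0.25) and -0.15 at 2000 pg (-0.48 to 0.17), neither called. Without IFN200 replicate 1 the first was -0.09, and without IFN2000 replicate 2 the second was -0.03 (adjusted p = 0.964). Its value in IFN2000 replicate 2, the library with T cell transcripts, was the lowest of all 12. Ptpn6 (ENSMUSG00000004266, chr6:124720707-124738714, minus strand) shares 195 bases of exon with Gm20531 on the opposite strand.

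Ptpn2 encodes TC-PTP, which dephosphorylates JAK1 and STATs. The Ctrl libraries measured 44.3 and 43.0 CPM, those of IFN200 49.5 and 43.6, those of IFN2000 52.8 and 46.8, those of Oxali 56.2 and 58.0, those of Combo200 58.1 and 61.1 and those of Combo2000 60.4 and 58.1 CPM. The Combo200 and Combo2000 libraries overlapped each other, and both Oxali libraries lay below them. The log2 differences of Combo200 and Combo2000 from Oxali were 0.06 and 0.05, neither called. All libraries with Oxali lay above all those without it. Log2 differences from Ctrl were 0.39 ± 0.06 in Oxali (adjusted p = 2.37e-05), 0.45 ± 0.06 in Combo200 (adjusted p = 2.7e-06) and 0.44 ± 0.06 in Combo2000 (adjusted p = 3.45e-06), all kept in the 22 settings. In IFN2000 the difference was 0.19 ± 0.06 (adjusted p = 0.0480), but 0.11 without IFN2000 replicate 2 (adjusted p = 0.441), and leaving out any of 9 libraries ended the call (both Ctrl, Oxali, Combo200 and Combo2000 libraries and IFN2000 replicate 2). Ptpn2 (ENSMUSG00000024539) lies on chromosome 18, minus strand.

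Ptpn1 encodes PTP1B, whose substrates include JAK2 and TYK2, and was the highest of the 9 genes by length-scaled level. Ctrl libraries held 130 and 124 CPM, IFN200 120 and 129, IFN2000 118 and 122, Oxali 146 and 141, Combo200 149 and 145, and Combo2000 145 and 143. The changes were small beside those of Usp18 and Socs1: 0.18 ± 0.04 in Oxali (adjusted p = 0.00164), 0.21 ± 0.04 in Combo200 (adjusted p = 0.000264) and 0.18 ± 0.04 in Combo2000 (adjusted p = 0.000992) on the log2 scale, all kept in the 22 settings. Ptpn1 (ENSMUSG00000027540) lies on chr2:167932057-167979385, plus strand.

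Pias1, a SUMO ligase that restrains DNA binding by STATs, was lower in IFN2000 and higher in Oxali, the first of these calls being lost in most settings. The Ctrl libraries measured 72.3 and 65.9 CPM, those of IFN200 71.3 and 69.1, those of IFN2000 62.2 and 62.7, those of Oxali 77.3 and 75.9, those of Combo200 77.3 and 78.5 and those of Combo2000 79.0 and 78.7 CPM. IFN2000 lay below and the 3 Oxali groups above both Ctrl libraries. The log2 difference from Ctrl was -0.14 ± 0.05 in IFN2000 (adjusted p = 0.0405), 0.15 ± 0.05 in Oxali (adjusted p = 0.00722), 0.18 ± 0.05 in Combo200 (adjusted p = 0.00210) and 0.19 ± 0.05 in Combo2000 (adjusted p = 0.000891). The IFN2000 call was lost in 20 of the 22 settings, when any library but Ctrl replicate 2 was left out included (for IFN2000 replicate 2, -0.13, adjusted p = 0.179). The Oxali call was lost without Ctrl replicate 2 or Oxali replicate 1 (largest adjusted p = 0.172), and the Combo200 call without Ctrl replicate 2 (adjusted p = 0.0983). Pias1 (ENSMUSG00000032405) lies on chr9:62878368-62987924, minus strand.

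Adding IFNγ to Oxali raised Socs1 and Usp18 and no other of the 9 genes by this test. In Combo200 against Oxali 2 of the 9 were called, beside 1.83% of all genes, and in Combo2000 against Oxali the same pair was called, beside 4.36% of all genes. Socs1 was 4.87-fold higher in Combo2000 than in Oxali (log2 difference 2.28 ± 0.15, adjusted p = 4.54e-10) and Usp18 2.57-fold higher (1.36 ± 0.15, adjusted p = 2.57e-06), and both calls held in all 22 settings. In Combo200 the differences were 0.78 ± 0.18 for Socs1 (adjusted p = 0.0183) and 0.80 ± 0.16 for Usp18 (adjusted p = 0.00730). Neither was called by DESeq2 (adjusted p = 0.116 and 0.136). The Socs1 call was lost when either Oxali or either Combo200 library was left out (adjusted p 0.0647 to 0.187), and the Usp18 call without either Oxali library or Combo200 replicate 3 (adjusted p 0.0785 to 0.169). For the other 7 genes the log2 difference between Combo2000 and Oxali ran from -0.09 (Socs2, 95% interval -0.19 to 0.00) to 0.21 (Socs3, 95% interval 0.05 to 0.36, adjusted p = 0.142). Between the doses, in Combo2000 against Combo200, 2 of the 9 were called, beside 1.37% of all genes: Socs1 at 1.5 ± 0.13 (adjusted p = 1.04e-07) and Usp18 at 0.56 ± 0.13 (adjusted p = 0.0364). The Usp18 call between the doses was lost by DESeq2 and without any library of the Oxali, Combo200 or Combo2000 groups (adjusted p 0.0575 to 0.404).

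Adding Oxali to IFNγ changed 8 of the 9 genes at either dose. In Combo200 against IFN200, 7 were higher and 1, Socs3, lower, beside 69.9% of all genes called in either direction. The same counts were found in Combo2000 against IFN2000, beside 72.3% of all genes, and both counts remained 8 with the 2 libraries that held T cell or heart muscle transcripts left out. At the lower dose the Socs3 and Pias1 calls were each lost without IFN200 replicate 2 or Combo200 replicate 3. Over the 22 settings their log2 differences ran from -0.36 to -0.13 and from 0.11 to 0.20. In the higher-dose comparison Usp18 differed by 3.36 on the log2 scale (adjusted p = 7.87e-12), Socs1 by 2.00 (adjusted p = 8.86e-11), Ptpn6 by 0.96 (adjusted p = 2.05e-06), and Socs3 by -0.36 (adjusted p = 8.12e-05). Without IFN2000 replicate 2 these were 3.66, 1.82, 0.83 and -0.39, each still called. Between the IFNγ doses alone, in IFN2000 against IFN200, 3 of the 9 were called, beside 22.3% of all genes: Socs1, Socs3 at 0.20 ± 0.07 (adjusted p = 0.0416) and Pias1 at -0.17 ± 0.05 (adjusted p = 0.0122). With both libraries that held other transcripts left out the count was 1, Socs1, and Socs3 and Pias1 had adjusted p of 0.514 and 0.280. Socs3 also lost its call without any 1 of 7 libraries (IFN200 replicate 1 and both libraries of IFN2000, Combo200 and Combo2000, adjusted p 0.0544 to 0.397), and Pias1 without IFN200 replicate 1 (adjusted p = 0.143) or IFN2000 replicate 2 (adjusted p = 0.0740).

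The test of whether the response to IFNγ differed with and without Oxali on the log2 scale (the interaction term) called 0 of the 9 genes at either dose by edgeR and 0 by DESeq2, beside 0.698% of all genes at 200 pg and 2.72% at 2000 pg. Socs1 was the gene nearest to the threshold, with an interaction of 1.45 ± 0.36 at 200 pg (adjusted p = 0.0698, 95% interval 0.70 to 2.20) and 1.01 ± 0.30 at 2000 pg (adjusted p = 0.0774, 95% interval 0.39 to 1.64). It passed with no filter on low counts (adjusted p = 0.00892 and 0.0262). At 200 pg it also passed without IFN200 replicate 2 (adjusted p = 0.0451), IFN2000 replicate 2 (adjusted p = 0.0480) or IFN2000 replicate 3 (adjusted p = 0.0466), and at 2000 pg without IFN2000 replicate 3 (adjusted p = 0.0254). Without IFN200 replicate 1, the library with heart muscle transcripts, it was 1.10 at 200 pg (adjusted p = 0.450), and without IFN2000 replicate 2 it was 0.84 at 2000 pg (adjusted p = 0.240). For Usp18 the term was -0.34 at 200 pg (95% interval -1.35 to 0.68) and -0.06 at 2000 pg (-0.89 to 0.76), and without those libraries it was -0.19 and 0.24. Pias1 had an unadjusted p under 0.05 at 2000 pg (0.19, adjusted p = 0.133, and 0.17 without IFN2000 replicate 2, adjusted p = 0.306), as did Socs1 at both doses, and no other of the 9 did.

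On the linear scale the combination can be set beside the sum of the single changes, as a description with no test. For Socs1 the Ctrl level plus both single changes came to 4.16 CPM at the higher dose, against 11.6 and 12.03 CPM measured, and to 1.97 CPM at the lower dose, against 4.45 and 3.90. For Usp18 the sum was 3.36 CPM against 7.41 and 7.54 measured at the higher dose, and 3.24 CPM against 4.80 and 5.33 at the lower. Measured values of these genes thus lay above the sum in all 4 libraries with both agents. So did those of Cish, with sums of 8.91 CPM at the lower dose and 8.59 at the higher, against at least 9.55 and 9.78. For Ptpn1 the sums were 140.6 and 136.4 CPM, against at least 144.9 and 142.9. Pias1 at the higher dose and Socs3 at the lower also lay above the sum. Socs2 and Ptpn6 at the lower dose and Ptpn2 at the higher lay below it. In Ptpn6 the sum of 8.05 CPM at the higher dose lay between the measured 7.85 and 8.84. With IFN2000 replicate 2 left out, the sum at the higher dose was 4.50 CPM for Socs1, 3.23 for Usp18 and 8.42 for Ptpn6. With IFN200 replicate 1 left out, the sum at the lower dose was 2.17 CPM for Socs1 and 3.18 for Usp18. For Cish these sums were 7.49 and 8.54 CPM. The Ptpn1 sum was 138.3 CPM at the higher dose. At the lower dose it was 144.95 CPM, between the measured 144.90 and 149.17. The Ptpn2 sum at the higher dose was 60.26 CPM, between the measured 58.06 and 60.39.

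**Figure D3:**
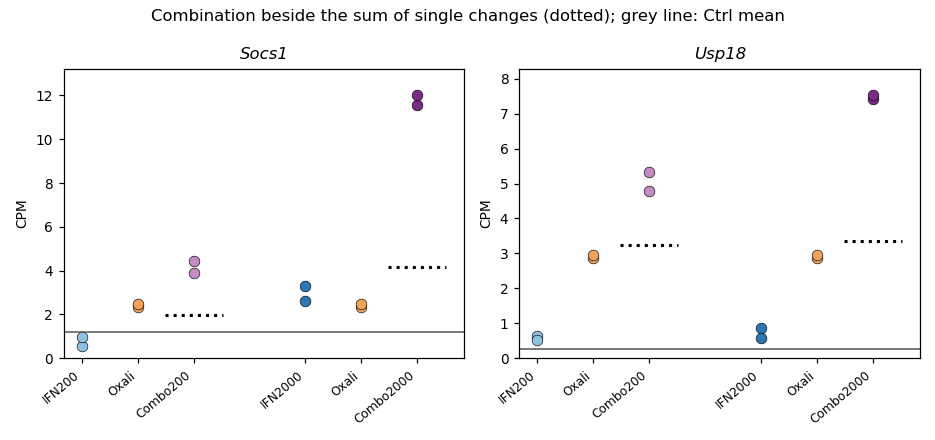
Level of Socs1 and Usp18 in CPM (vertical axes, linear from 0) for each library of the single treatments and the combination, at the lower IFNγ dose on the left of each panel and the higher on the right. The dotted line is the Ctrl mean plus both single changes (4.16 CPM for Socs1 and 3.36 CPM for Usp18 at the higher dose), the grey line is the Ctrl mean, and the combination libraries lie above the dotted line.

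Divided by exon length (CPM per kilobase of all annotated exons of the gene joined), the order of the 9 genes in Ctrl was Ptpn1 at 22.9 ± 0.8 (SD, n = 2), Ptpn2 14.0 ± 0.3, Socs3 12.8 ± 0.8, Pias1 10.1 ± 0.7, Socs2 6.0 ± 0.03, Ptpn6 1.69 ± 0.28, Cish 1.13 ± 0.00, Socs1 0.419 ± 0.024 and Usp18 0.0935 ± 0.0476. Every neighbouring pair in this order was further apart than the sum of both SDs. Exons of Socs2 and Cish add up to 9.53 and 6.42 kb over 14 and 5 transcripts, which lowers their length-scaled level if shorter transcripts are used. In IFN200 Ptpn2 and Socs3 lay within their spread, as did Socs1 (0.264) and Usp18 (0.212). In IFN2000 Cish (1.07) and Socs1 (1.02) could not be separated, nor could Cish (1.52) and Socs1 (1.44) in Combo200. In the other IFN200 library, replicate 2, Ptpn2 stood at 14.0, Socs3 at 13.4, Socs1 at 0.334 and Usp18 at 0.190, the same order, whereas in IFN2000 replicate 3 alone Socs1 (1.14) stood above Cish (0.897). In Combo2000 Socs1 reached 4.06 ± 0.11 and stood above Ptpn6 (2.98 ± 0.25), Usp18 (2.68 ± 0.03) and Cish (1.56 ± 0.05), which all had exceeded it in Ctrl except Usp18. Pias1 (11.5) and Socs3 (11.1) had changed places relative to Ctrl. The 2 least abundant genes in Ctrl were thus the ones with the largest changes.

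**Figure D4:**
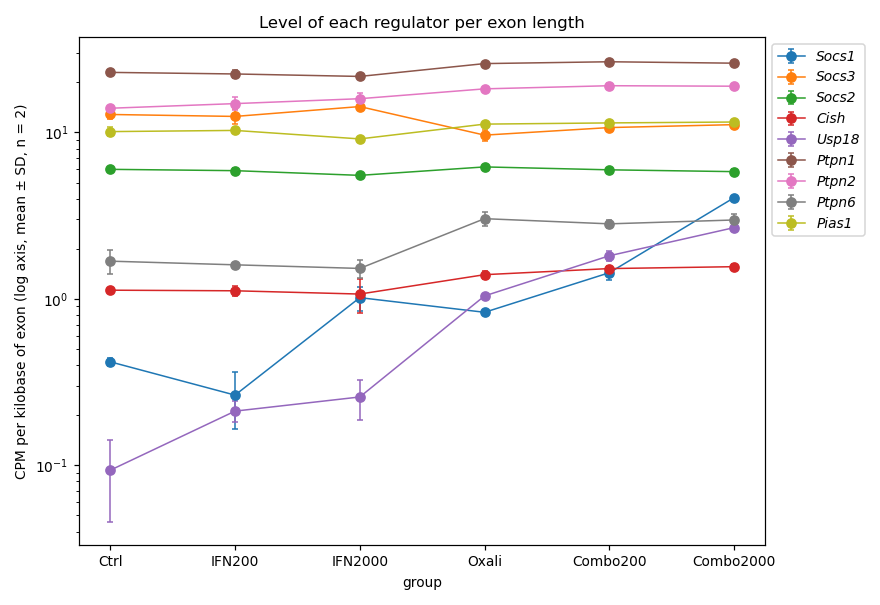
CPM per kilobase of exon for the 9 regulators (vertical axis, logarithmic, mean ± SD, n = 2) in the 6 groups. Socs1 moves from 0.419 in Ctrl to 4.06 in Combo2000 and Usp18 from 0.0935 to 2.68, while Ptpn1 stays the highest throughout.

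Genes that pass the signal on were read beside the inhibitors. Of 15 receptor subunits, kinases, STATs and interferon regulatory factors, none was called in IFN200 by edgeR or DESeq2 (4 had an unadjusted p under 0.05, Ifnar1, Irf1 and Irf9 among them), 5 were higher and 1 lower in IFN2000, 10 higher and 2 lower in Oxali, and 11 higher and 2 lower with both agents at either dose, all against Ctrl. The 12 called in Oxali and 13 in each combination stand beside 67.6%, 68.7% and 69.2% of all genes called in Oxali, Combo200 and Combo2000, and the 6 in IFN2000, 5 without its replicate 2, beside 16.9%. Among the largest log2 differences in Combo2000 were those of the transcription factor gene Irf1 at 3.54 ± 0.05 (adjusted p = 2.45e-21), Irf9 at 2.86 ± 0.08 (adjusted p = 7.17e-17) and Ifngr2, which encodes the signalling chain of the IFNγ receptor, at 2.29 ± 0.22 (adjusted p = 1.46e-08). In this list 4 genes had an interaction called at 200 pg and 5 at 2000 pg, all above 0. Over all genes 0.698% and 2.72% had one called, and of these 80.4% and 78% were above 0. At 2000 pg Irf1 was among the called (0.88 ± 0.07, adjusted p = 7.58e-08), whereas Ifngr2 was not (0.48 ± 0.36, adjusted p = 0.550). Replicates 2 and 3 of IFN2000 measured 94.6 and 93.9 CPM of Irf1, and 0.985 and 0.893 CPM of Ifngr2. The log2 ratio of Socs1 to Irf1 CPM was -5.05 and -4.87 in Ctrl and -5.22 and -5.21 in Combo2000. It was lower in Combo200, at -5.86 and -6.02, and in IFN200, at -6.38 and -5.46, the latter on 13 and 22 counts of Socs1. IFN2000 gave -5.18 and -4.83, and Oxali -5.36 and -5.25. These ratios were not tested, and they compare libraries, not the level of 1 gene with the other.

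Of 10 other inhibitors of the pathway, none was called with IFNγ alone at either dose by edgeR or DESeq2, and 1, Socs4 at 2000 pg, had an unadjusted p under 0.05. Leaving out IFN2000 replicate 3 gave 1 call at 2000 pg. In Oxali 3 were higher and 2 lower, in Combo200 3 higher and 1 lower, and in Combo2000 3 higher and 2 lower, beside 67.6%, 68.7% and 69.2% of all genes called in these comparisons. The largest values in Combo2000 were those of Pias3 (0.71 ± 0.05, adjusted p = 1.9e-10), a PIAS family inhibitor of STAT3, Sh2b3 (-0.41 ± 0.08, adjusted p = 0.00024), the adaptor LNK that restrains JAK2, Socs7 (0.34 ± 0.05, adjusted p = 6.02e-06) and Socs5 (0.28 ± 0.04, adjusted p = 8.45e-06). By edgeR and DESeq2 0 of the 10 had an interaction called at either dose, and 0 had an unadjusted p under 0.05. Without IFN2000 replicate 3, 1 was called at 2000 pg.

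The 4 genes of ISG15 conjugation, the modification that USP18 reverses, were all higher than Ctrl with Oxali, alone or with IFNγ, and 3 were higher with IFNγ alone at 2000 pg, with IFN2000 replicate 2 or without it. Of all genes, 34.8% were called higher in Oxali, 35.6% in Combo200, 35.7% in Combo2000 and 8.39% in IFN2000. In Combo2000 the log2 difference from Ctrl was 2.99 ± 0.14 for Uba7, the activating enzyme (adjusted p = 1.8e-13), 2.66 ± 0.09 for the ligase gene Herc6 (adjusted p = 2.86e-15), 2.11 ± 0.10 for Isg15 itself (adjusted p = 2.19e-13) and 1.84 ± 0.06 for Ube2l6, the conjugating enzyme (adjusted p = 3.11e-15). The log2 ratio of Usp18 to Isg15 CPM was -5.74 and -4.51 in Ctrl, -2.63 and -2.58 in Oxali, and -2.25 and -2.34 in Combo2000, higher in all 6 libraries with Oxali than in the 6 without. Without Oxali this ratio rests on 3 to 20 counts of Usp18 a library.

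**Figure D5:**
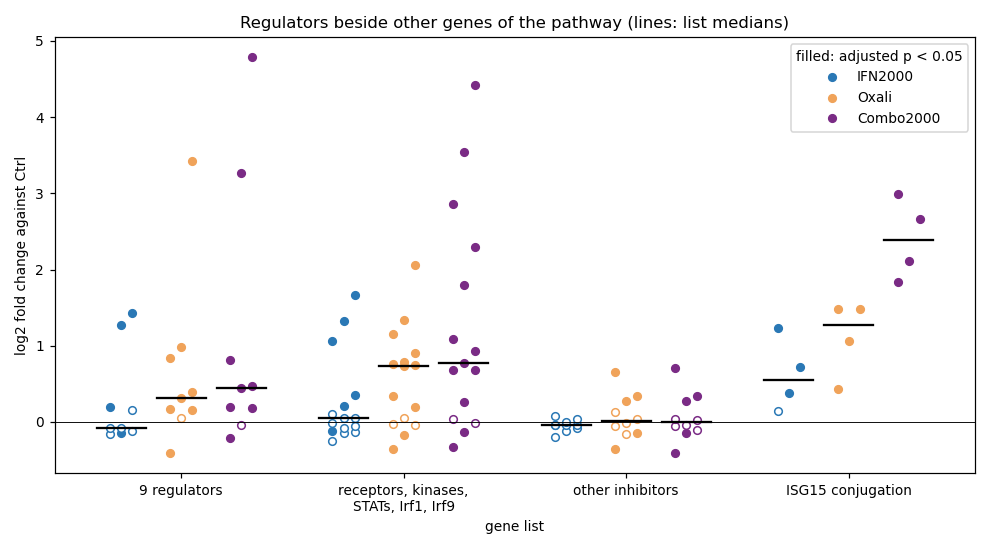
Log2 fold change against Ctrl (vertical axis) of the 9 regulators and of 3 other gene lists of the pathway (horizontal axis) in IFN2000, Oxali and Combo2000, with 1 point a gene, filled where the adjusted p is under 0.05, and lines at list medians. The other inhibitors stay between -0.41 and 0.71 in Combo2000, whereas Irf1 reaches 3.54.

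Patterns over the 12 libraries were compared as a description, since all points share the same treatments and 1 gene's likeness to another says nothing of a common control. Among the genes whose log2 CPM followed Usp18 most closely were Tnfsf10 and Adam8 (Pearson r 0.99 for both, n = 12 libraries). Those nearest to Socs1 were Tmem41a (r = 0.96), Lamtor3 and Tapbpl (r = 0.95 for both). For Ptpn6 they were Stk39, Cntd1 and Ncs1 (r = 0.99 for each), and for Socs3 1500011B03Rik (r = 0.98), 2310061I04Rik and Chmp6 (r = 0.97 for both). Cish was nearest to Zfp119a and Slfn2 (r = 0.96 for both) and Kdm8 (r = 0.95), Ptpn2 to Snx2 (r = 0.98), Arl6ip1 and Clybl (r = 0.97 for both), and Ptpn1 to Slc8b1, Mgat4a (r = 0.99 for both) and Osbpl8 (r = 0.98). Pias1 was nearest to Tax1bp1 (r = 0.99), Pi4ka and Ccbe1 (r = 0.98 for both), and Socs2, whose levels varied least, to Hipk3 (r = 0.89), Mon1b and Atxn3 (r = 0.88 for both). Among the 9 genes themselves, Usp18 ran closest to Ptpn2 (r = 0.94) and Ptpn6 (r = 0.89), Socs1 to Usp18 (r = 0.81), and Socs3 ran against Pias1 (r = -0.87).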

How the data were processed

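Poly(A) RNA from 12 Myc-CaP libraries was sequenced from stranded libraries. The authors aligned reads with STAR, per the study's methods to GRCm38, and deposited a table of whole-number counts per gene symbol. The submitters' processing notes name STAR 2.7.3a and RSEM 1.3.0, whereas the methods name featureCounts. The strand setting of the counting is not given in the sources used here. Counts were analysed as deposited: genes under the edgeR filter (minimum count 10, minimum total 15) were removed, leaving 13177 of 55216, libraries were scaled by TMM, and a quasi-likelihood model over all 12 libraries with 1 mean per group was fitted (edgeR 4.0.16, R 4.3.3) and tested in 13 contrasts, each adjusted by Benjamini-Hochberg at 0.05 over all genes tested. The fit was run on simulated data in which few genes changed, with Oxali only and equally up and down. No interaction was simulated. That setting does not test the scaling where most genes move. An exact permutation test of 2 against 2 libraries cannot go below p = 0.333, so none was used. Intervals are 95% intervals of the fit, unadjusted.

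Groups followed the sample titles. Members and gene lists were chosen with earlier results of these data known, and support nothing by their choice. From the other gene lists the text names up to 4 genes, those called with the largest absolute change in Combo2000 against Ctrl, and for each member the 3 genes most correlated in log2 CPM (mean at least 1). Some genes that these rules pick are not reported here. Alternatives were other scalings, DESeq2 1.42.0, no or a stricter filter, only the groups compared, a replicate block, a length and GC correction, and each library left out. Leaving out the 2 libraries with transcripts of other tissues together was added after seeing the data. Where 1 library of a group remained, it was taken to vary like the other groups. Libraries of a pair differed by more than sampling noise in all 6 groups, which does not tell whether they came from separate cultures. Each was counted as 1 replicate. Gene lengths came from GENCODE annotation of GRCm38 and start-site windows from RefSeq (GRCm38.p6).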

Additional observations from a re-analysis of the deposited data

How the results depend on the processing

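Of 53 member and comparison pairs called, 38 kept their call in all 22 alternatives and 15 lost it in at least 1. Of 1166 recomputed values 1063 kept the call, 103 lost it and 0 changed direction. The number of the 9 genes called in IFN2000 against Ctrl, 4, was 1 by DESeq2, 1 with only the groups compared, 2 with the length and GC correction and 1 with both libraries holding other transcripts left out. In IFN2000 against IFN200, 3 became 1 by DESeq2, 1 with the length and GC correction and 1 with both libraries left out. By DESeq2 Combo200 against Oxali fell from 2 to 0 and Combo2000 against Combo200 from 2 to 1, and with no filter on low counts each interaction rose from 0 to 1. With 1 library left out the counts ran from 1 to 3 in IFN2000 against Ctrl, 1 to 3 in IFN2000 against IFN200, 0 to 2 in Combo200 against Oxali, 1 to 2 in Combo2000 against Combo200 and 0 to 1 for either interaction. The cause of these losses was not tested.

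Same-numbered libraries did not deviate together (21 pairs, r -0.0456 to 0.0450), so the numbers were not taken to pair libraries. With 2 libraries a group the deviations mirror each other, so some pairs repeat the same r. The r weighs all genes alike, counting error included, so it cannot decide whether libraries shared a batch. With the replicate number as a block (replicate block), the count was 1 in IFN2000 against Ctrl, 0 in Combo200 against Oxali, 1 in IFN2000 against IFN200 and 1 in Combo2000 against Combo200. With the replicate block and the length and GC correction it was 2, 0 and 1 in the first 3 of these. Depth limits Usp18 and Socs1 most, with 3 to 25 counts a library in Ctrl.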
